A study of Mus musculus with 12 samples.

Results

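The CDK inhibitors are the 7 genes Cdkn1a, Cdkn1b, Cdkn1c, Cdkn2a, Cdkn2b, Cdkn2c and Cdkn2d, taken by symbol from the 17365 genes of the count table. All 7 were found and all 7 passed the filter on low counts, which kept 13312 genes. They were followed in 12 bulk RNA-seq libraries from a pair of adult mouse neural stem cell (NSC) lines grown from the subventricular zone of mice 6 to 8 weeks old. ANS4 came from MF1 mice and BL6 from C57BL/6 mice, and each condition had 2 libraries of each line. All cells grew without serum on laminin with N2 and B27. The EGF/FGF libraries are proliferating cells with EGF and FGF2, the BMP libraries are cells given BMP4 alone for 3 days, and the BMP/FGF libraries are cells given BMP4 with FGF2 for 3 days, each factor at 10 ng/ml. Each line is a single culture line kept outside its niche. The study calls the 2 libraries of a line and condition biological replicates, but the sources used here do not say whether they were separate cultures or platings, so the p-values measure only the spread between these libraries. Line and mouse strain cannot be told apart. The BMP and BMP/FGF libraries had no EGF, so the effects of BMP4 and of losing EGF against EGF/FGF cannot be told apart. The BMP libraries also had no FGF2.

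Cyclin-dependent kinases (CDKs) drive cells through the cell cycle once a cyclin binds them. The Cip/Kip inhibitors p21 (Cdkn1a), p27 (Cdkn1b) and p57 (Cdkn1c) bind cyclin-CDK complexes broadly, while the INK4 inhibitors p16 (Cdkn2a), p15 (Cdkn2b), p18 (Cdkn2c) and p19 (Cdkn2d) bind Cdk4 and Cdk6 and keep D cyclins from activating them. Cdkn2a also encodes p19Arf from another first exon and reading frame, a protein that restrains Mdm2 and so protects p53, and the gene-level counts do not separate its transcripts. In the adult brain p21, p27 and p57 are known for their part in holding NSCs out of the cycle, and p16 for its rise with age.

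The libraries held 18069052 to 19451818 estimated counts. Levels are in CPM, the gene's share of its library's counts scaled alike in all libraries by TMM, with n = 4 libraries per condition, and a gene is called when edgeR's quasi-likelihood test gives a Benjamini-Hochberg adjusted p (FDR) under 0.05 over the 13312 genes. All 14 NSC markers were detected in each condition, and 9 rose and 5 fell in BMP. All 12 proliferation markers fell in BMP and again in BMP/FGF against BMP, with a summed level of 3284 to 3898 CPM in EGF/FGF, 537 to 775 CPM in BMP and 370.1 to 391 CPM in BMP/FGF. Replicates of BL6 in BMP differed most from each other, at 12.4 times the chi-square expected of counting error, against 2.14 to 4.76 for the other pairs. Of 10 neuron markers, all in the table, the summed level was 592 to 615 CPM in EGF/FGF, 1157 to 1244 CPM in ANS4 with BMP, 1638 to 1815 CPM in BL6 with BMP and 888 to 953 CPM in BMP/FGF. The 10 oligodendrocyte lineage markers summed to 255 to 308, 709 to 797 and 791 to 815 CPM in EGF/FGF, BMP and BMP/FGF, and 8 of 10 endothelial and mural markers to 37.5 to 52.0, 30.8 to 41.4 and 35.1 to 46.9 CPM. Of 12 microglia markers 6 were in the table, at a summed 54.8 to 66.2, 56.0 to 68.0 and 76.8 to 84.5 CPM, and Csf1r was at 0 in BMP. The called marker genes in BMP were 7 higher and 1 lower of 8 tested for neurons, 4 and 2 of 6 for the oligodendrocyte lineage, 3 and 1 of 5 for endothelial and mural cells and 1 and 1 of 3 for microglia. The part of these other cell markers in the results was not tested, and in bulk RNA fewer cells of a type and less RNA per cell cannot be told apart.

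In BMP, over both lines together, 3 inhibitors rose and 3 fell. Cdkn1b, Cdkn2a and Cdkn2b were higher than in EGF/FGF and Cdkn1a, Cdkn2c and Cdkn2d were lower, so 6 of the 7 were called, beside 79.6% of all genes tested in this comparison. The rise of Cdkn2a was in BL6 alone, with a log2 ratio of 1.34 there and -0.15 in ANS4. The 3 that rose stand beside 40.8% of all genes and the 3 that fell beside 38.8%, shares near those of the inhibitors. In BMP/FGF against EGF/FGF 5 of 7 were called, Cdkn1b and Cdkn2b higher and Cdkn1a, Cdkn2c and Cdkn2d lower, beside 78.9% of all genes in either direction, 40.9% higher and 38.0% lower. Both comparisons use the same 4 EGF/FGF libraries. BMP/FGF against BMP called 3 of 7, Cdkn1a higher and Cdkn2c and Cdkn2d lower, beside 41.4% of all genes, 20.1% higher and 21.3% lower. The ranges of the 4 and 4 libraries did not overlap for 5 of 7 inhibitors in the first comparison, beside 71.1% of genes, for 6 of 7 in the second, beside 75.8%, and for 3 of 7 in the third, beside 35.6%. Only Cdkn1a passed a log2 fold change of 1.5, as a fall in BMP, as did 6.95% of all genes. The median log2 fold change over all genes tested was 0.02 in BMP and 0.02 in BMP/FGF against EGF/FGF.

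**Figure D1:**
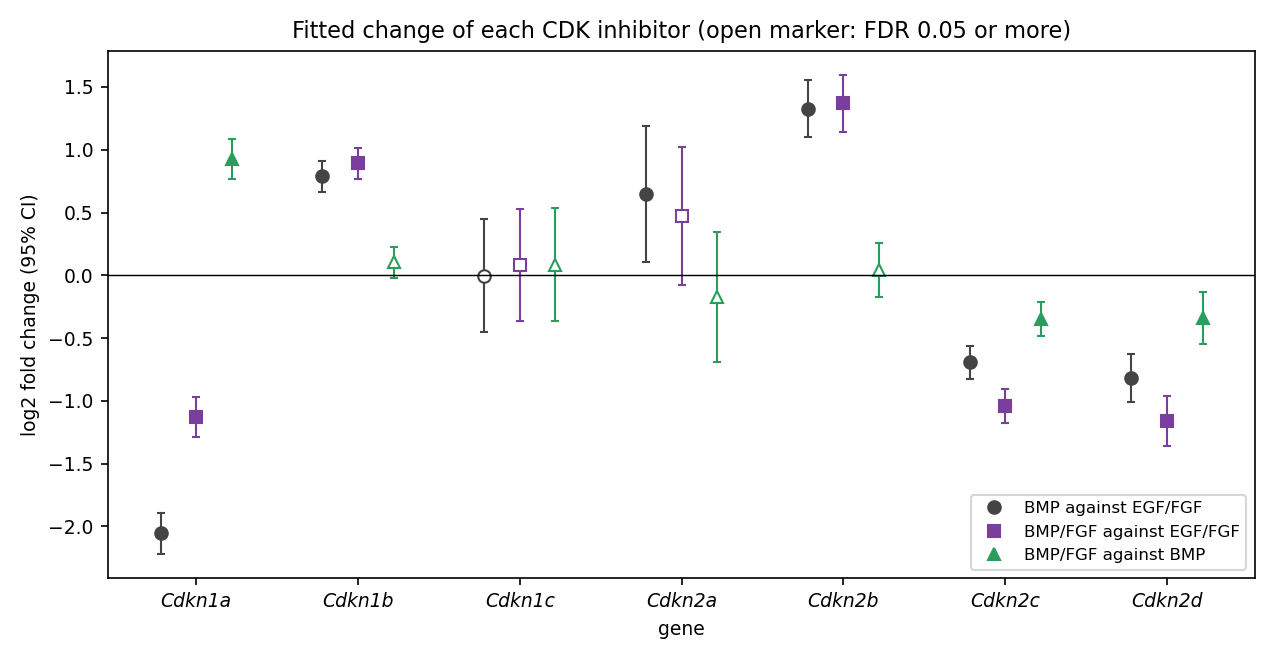
Fitted log2 fold change (y axis) of each CDK inhibitor (x axis) with its 95% confidence interval in the 3 comparisons of 4 against 4 libraries. Filled markers have an FDR under 0.05. Cdkn1a lies at -2.06 in BMP and -1.13 in BMP/FGF, Cdkn1b and Cdkn2b lie above 0 in both, Cdkn2c and Cdkn2d lie below 0 in both, and Cdkn1c lies within 0.09 of 0 in all 3.

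Cdkn1a encodes p21, the inhibitor best known as a target of p53. It is on the plus strand of chromosome 17 at chr17:29090976-29100727 (GRCm38). Its transcript was at 340.3 and 331 CPM in the ANS4 and 281 and 263 CPM in the BL6 libraries with EGF/FGF. With BMP it was at 80.1 and 70.2 CPM in ANS4 and 62.9 and 77.8 CPM in BL6. With BMP/FGF it was at 141 and 143 CPM in ANS4 and 142 and 128 CPM in BL6. All 4 proliferating libraries were above all BMP/FGF libraries, which were above all BMP libraries. The means were 303.8 ± 37.6, 72.8 ± 7.82 and 138 ± 6.91 CPM (SD, n = 4) in EGF/FGF, BMP and BMP/FGF. The level was 4.16-fold lower in BMP (log2 -2.06 ± 0.078 SE, FDR = 7.1e-14) and 2.19-fold lower in BMP/FGF (log2 -1.13 ± 0.075 SE, FDR = 1.7e-10), and it was 1.90-fold higher in BMP/FGF than in BMP (log2 0.93 ± 0.076 SE, FDR = 6.6e-08). By the two-sided exact permutation test, which took no account of line, each of these gave p = 0.0286. This is the smallest that this test allows for 4 against 4 libraries. An exon of Cdkn1a overlaps a gene on the opposite strand, and no source used here states that the counting used strand.

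Cdkn1b encodes p27, which accumulates in resting cells and is removed by the SCF ubiquitin ligase with Skp2 and Cks1b. It is on the plus strand at chr6:134920401-134925513. In EGF/FGF it was at 205 and 192 CPM in ANS4 and 183 and 184 CPM in BL6. In BMP it was at 325 and 324 CPM in ANS4 and 353 and 318 CPM in BL6, and in BMP/FGF at 343 and 360.1 CPM in ANS4 and 362 and 352 CPM in BL6. Every library with BMP4 was above every EGF/FGF library, while the ranges of BMP and BMP/FGF overlapped. The means were 191 ± 10.0, 330.0 ± 15.6 and 354 ± 8.41 CPM (SD, n = 4). Cdkn1b rose 1.73-fold in BMP (log2 0.79 ± 0.059 SE, FDR = 7.4e-10) and 1.85-fold in BMP/FGF (log2 0.89 ± 0.059 SE, FDR = 1.5e-10). Between BMP/FGF and BMP the log2 difference was 0.10, with a 95% interval from -0.020 to 0.22 and an FDR of 0.17.

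Cdkn2b encodes p15, a classic target of TGF-beta signalling through Smads. It lies on the minus strand at chr4:89306299-89311039, with 11645 bases between it and the end of Cdkn2a. In EGF/FGF it was at 18.8 and 18.1 CPM in ANS4 and 12.6 and 13.4 CPM in BL6. In BMP it was at 39.0 and 41.0 CPM in ANS4 and 35.5 and 41.7 CPM in BL6, and in BMP/FGF at 38.0 and 38.0 CPM in ANS4 and 41.7 and 43.8 CPM in BL6. All 8 libraries with BMP4 and no EGF were above all 4 with EGF. The lines did not overlap in EGF/FGF, where BL6 was lower, or in BMP/FGF, where BL6 was higher, but overlapped in BMP. Cdkn2b rose 2.51-fold in BMP (log2 1.33 ± 0.11 SE, FDR = 2.8e-09) and 2.58-fold in BMP/FGF (log2 1.37 ± 0.11 SE, FDR = 1.9e-09), the largest rises among the inhibitors in both comparisons. The log2 difference between BMP/FGF and BMP was 0.04, with a 95% interval from -0.17 to 0.26 and an FDR of 0.77.

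The promoters of these 3 genes are shown because Cdkn1a fell while Cdkn1b and Cdkn2b rose in both BMP4 conditions. Each sequence is the 250 bases before an annotated RefSeq start (GRCm38.p6), read 5′ to 3′ on the gene's strand, with capitals on matches to the motifs named after them. The Cdkn1a sequence is chr17:29093519-29093768, plus strand, before the second of 2 listed starts. The Cdkn1b sequence is chr6:134920151-134920400, plus strand, and the Cdkn2b sequence is chr4:89311033-89311282, minus strand.
Cdkn1a: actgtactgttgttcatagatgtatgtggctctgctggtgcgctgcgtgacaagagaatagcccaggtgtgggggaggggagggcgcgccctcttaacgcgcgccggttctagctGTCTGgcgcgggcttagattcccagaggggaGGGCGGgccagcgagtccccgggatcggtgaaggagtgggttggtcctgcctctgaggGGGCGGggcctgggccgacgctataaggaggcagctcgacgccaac
Cdkn1b: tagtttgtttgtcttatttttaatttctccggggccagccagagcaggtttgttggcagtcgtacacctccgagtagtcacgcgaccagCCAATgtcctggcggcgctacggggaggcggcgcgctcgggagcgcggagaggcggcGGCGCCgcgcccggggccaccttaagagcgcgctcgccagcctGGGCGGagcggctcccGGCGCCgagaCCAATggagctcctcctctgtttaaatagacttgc
Cdkn2b: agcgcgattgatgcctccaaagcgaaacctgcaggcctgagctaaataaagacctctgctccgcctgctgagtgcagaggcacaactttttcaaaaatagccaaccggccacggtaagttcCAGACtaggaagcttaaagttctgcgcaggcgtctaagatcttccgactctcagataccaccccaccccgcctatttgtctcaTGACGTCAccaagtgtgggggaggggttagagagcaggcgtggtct
The motifs, searched on both strands, were GGGCGG (GC box), CCAAT (bound by NF-Y), CACGTG (E box), GTAAACA (forkhead), TTTCCCGC (E2F), CAGAC and GGCGCC (described for Smads) and TGACGTCA (CRE), of which GGGCGG and GGCGCC can share bases.

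In windows of 250 bases before to 50 after a start, 9 windows of 6 inhibitors could be read, and Cdkn1c had none. The CRE was in 1 of these 9 windows, that of Cdkn2b, and in 1.79% of all 32851 windows. GGCGCC was in 4 of 9, among them both copies shown for Cdkn1b, and in 11.9% of all windows. GGGCGG was in 7 of 9 and in 35.7% of all, CCAAT in 4 of 9 and 37.4%, and CAGAC in 5 of 9 and 49.6%. CACGTG was in 1 of 9 and 7.15% of all, TTTCCCGC in 1 of 9, a start of Cdkn2a, and 1.07%, and GTAAACA in 0 of 9 and 3.65%. The 9 windows held 44.0% to 77.0% G and C, and those of the sequences shown 64.7% (Cdkn1a), 62.0% (Cdkn1b) and 57.7% (Cdkn2b). The median over all windows was 52.7%, and the shares were not matched for base composition. These are matches of letters, not sites shown to be bound.

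**Figure D2:**
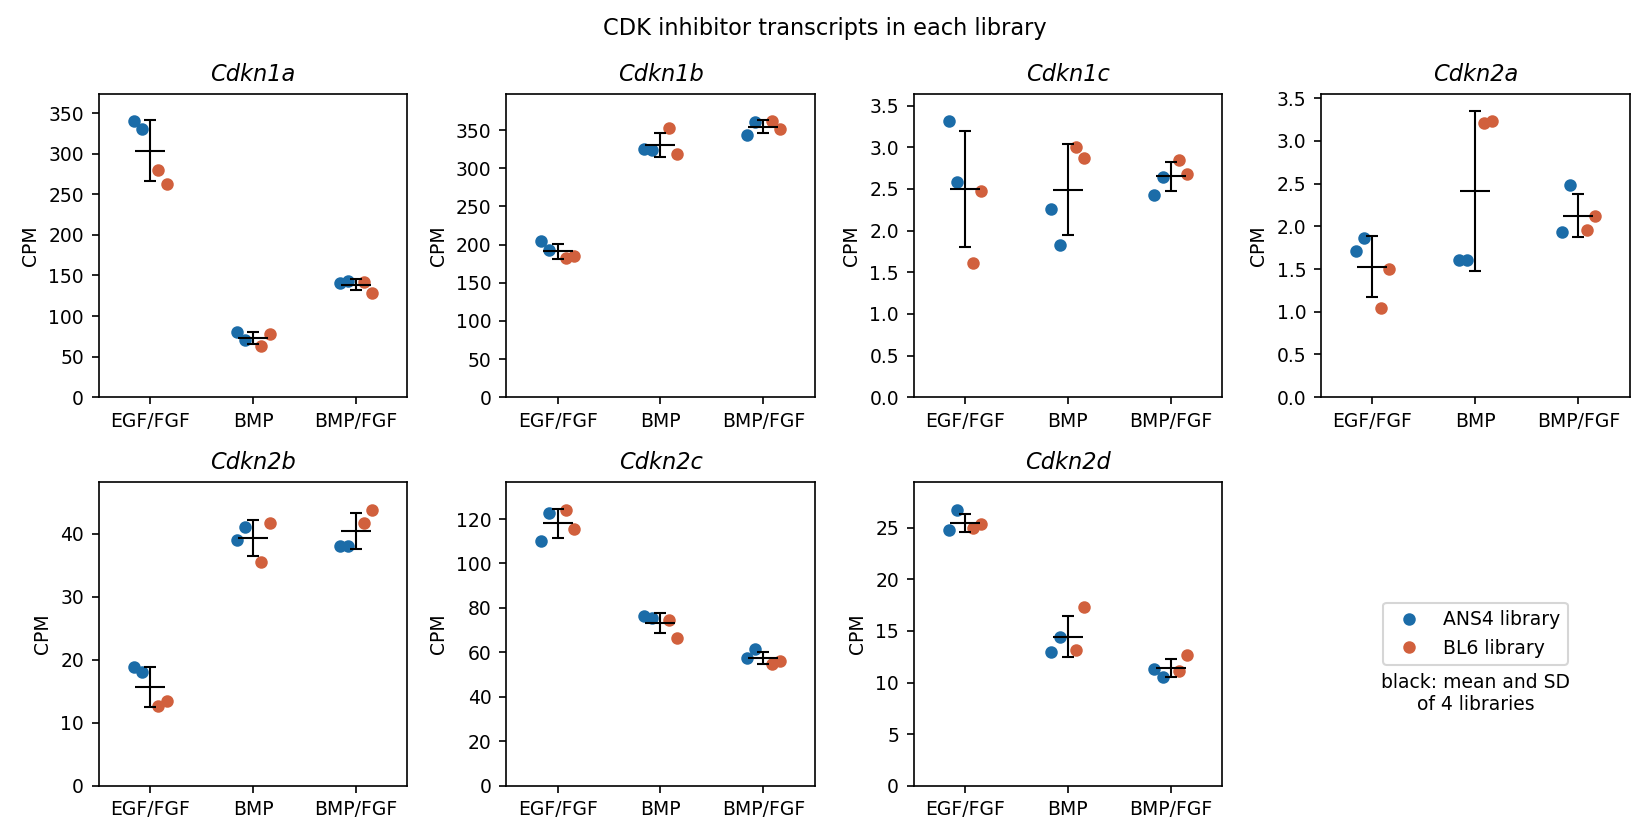
Level in CPM (y axis, linear and starting at 0) of each CDK inhibitor in the 12 libraries by condition (x axis), with ANS4 in blue and BL6 in orange. The black mark and bar are the mean and SD of 4 libraries. Cdkn1a is highest in EGF/FGF and lowest in BMP, Cdkn1b and Cdkn2b are higher in both BMP4 conditions, Cdkn2c and Cdkn2d step down from EGF/FGF to BMP to BMP/FGF, and Cdkn2a is split by line in BMP.

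Cdkn2c and Cdkn2d were the inhibitors that fell in both BMP4 conditions and fell further when FGF2 was added. Cdkn2c encodes p18, on the minus strand at chr4:109660876-109667189. It was at 110.2 and 123 CPM in ANS4 and 124 and 115 CPM in BL6 with EGF/FGF, at 76.3 and 75.3 CPM in ANS4 and 74.5 and 66.6 CPM in BL6 with BMP, and at 57.4 and 61.3 CPM in ANS4 and 54.8 and 56.3 CPM in BL6 with BMP/FGF. The ranges of the 3 conditions did not overlap. Cdkn2c fell 1.61-fold in BMP (log2 -0.69 ± 0.062 SE, FDR = 1.1e-08) and 2.06-fold in BMP/FGF (log2 -1.04 ± 0.063 SE, FDR = 4.9e-11). Against BMP, BMP/FGF was 1.27-fold lower (log2 -0.35 ± 0.064 SE, FDR = 0.00031).

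Cdkn2d encodes p19Ink4d, on the minus strand at chr9:21288410-21291407. It was at 24.8 and 26.8 CPM in ANS4 and 24.98 and 25.4 CPM in BL6 with EGF/FGF, at 13.0 and 14.4 CPM in ANS4 and 13.1 and 17.3 CPM in BL6 with BMP, and at 11.3 and 10.6 CPM in ANS4 and 11.1 and 12.6 CPM in BL6 with BMP/FGF. The lowest BMP library, at 13.0 CPM, was close to the highest BMP/FGF library, at 12.6 CPM. Cdkn2d fell 1.76-fold in BMP (log2 -0.82 ± 0.092 SE, FDR = 2.2e-07) and 2.24-fold in BMP/FGF (log2 -1.16 ± 0.095 SE, FDR = 2.9e-09). The further fall in BMP/FGF against BMP was 1.27-fold (log2 -0.34 ± 0.098 SE, FDR = 0.0098). Without both BL6 BMP libraries it was -0.28 with an FDR of 0.051, and in BL6 alone -0.36 with an FDR of 0.059.

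Cdkn1c and Cdkn2a had the lowest levels of the 7. Cdkn1c encodes p57 and lies in an imprinted domain, on the minus strand at chr7:143458339-143461050, where an exon overlaps a gene on the opposite strand. Its counts per library ranged over 31 to 64 with EGF/FGF, 33 to 58 with BMP4 alone and 45 to 51 with both factors. It was at 3.31 and 2.58 CPM in ANS4 and 1.61 and 2.48 CPM in BL6 with EGF/FGF, at 2.26 and 1.83 CPM in ANS4 and 3.01 and 2.87 CPM in BL6 with BMP, and at 2.42 and 2.64 CPM in ANS4 and 2.85 and 2.68 CPM in BL6 with BMP/FGF. All 3 ranges overlapped. The log2 differences were -0.0031 in BMP (95% interval -0.45 to 0.45, FDR = 0.99), 0.08 in BMP/FGF (-0.36 to 0.53, FDR = 0.73) and 0.09 between BMP/FGF and BMP (-0.36 to 0.53, FDR = 0.78). Each interval reaches changes in both directions. The value in BMP averages over lines that moved apart, with log2 ratios of -0.53 in ANS4 and 0.52 in BL6. In each line the 2 BMP libraries did not overlap the 2 EGF/FGF libraries, but the line difference was not called. The part of depth in the width of these intervals was not tested.

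Cdkn2a, on the minus strand at chr4:89274471-89294653, had 20 to 62 counts in any library. It was at 1.71 and 1.86 CPM in ANS4 and 1.04 and 1.498 CPM in BL6 with EGF/FGF. With BMP it was at 1.60 and 1.61 CPM in ANS4 and 3.21 and 3.23 CPM in BL6, and with BMP/FGF at 1.94 and 2.48 CPM in ANS4 and 1.96 and 2.12 CPM in BL6. Both BL6 BMP libraries were above all others, while both ANS4 BMP libraries lay within the range of EGF/FGF. Over both lines the rise in BMP was 1.56-fold (log2 0.65 ± 0.26 SE, FDR = 0.029), with an exact permutation p of 0.2. The call was lost when any 1 of the 4 BL6 libraries of this comparison was left out (FDR = 0.11 without BMP replicate 1, 0.10 without BMP replicate 2, 0.13 without EGF/FGF replicate 1 and 0.075 without EGF/FGF replicate 2), and without both BL6 BMP libraries the log2 difference was -0.06 (FDR = 0.83). In BMP/FGF the log2 difference from EGF/FGF was 0.47 ± 0.26 SE (FDR = 0.11), although all 4 libraries were above all 4 of EGF/FGF (exact permutation p = 0.0286), and it was called with only the 8 libraries compared (FDR = 0.037), in BL6 alone (FDR = 0.046) and without both BL6 BMP libraries (log2 0.48, FDR = 0.027). Against BMP it was -0.17 ± 0.25 SE (FDR = 0.60), and it was called in BL6 alone (log2 -0.66, FDR = 0.042).

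Whether the lines responded alike was asked by the line by condition interaction, BL6 minus ANS4. In BMP against EGF/FGF it called Cdkn2a and Cdkn2b, 2 of 7 beside 9.02% of all genes. The log2 ratio of Cdkn2a was 1.34 in BL6 and -0.15 in ANS4, a difference of 1.49 ± 0.36 SE (FDR = 0.015). That of Cdkn2b was 1.57 in BL6 and 1.116 in ANS4, a difference of 0.45 ± 0.14 SE (FDR = 0.044). In BMP/FGF against EGF/FGF only Cdkn2b was called, 1 of 7 beside 4.98% of all genes, with 1.72 in BL6 and 1.04 in ANS4 and a difference of 0.67 ± 0.14 SE (FDR = 0.0085). In BMP/FGF against BMP only Cdkn2a was called, 1 of 7 beside 13.5% of all genes, with -0.66 in BL6 and 0.46 in ANS4 and a difference of -1.120 ± 0.34 SE (FDR = 0.036). For Cdkn2b the levels of the lines differed in EGF/FGF, at 12.6 and 13.4 CPM in BL6 against 18.8 and 18.1 CPM in ANS4. The log2 ratio of Cdkn1c with BMP was 0.52 in BL6 and -0.53 in ANS4, a difference of 1.04 ± 0.34 SE that was not called (FDR = 0.063).

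**Figure D3:**
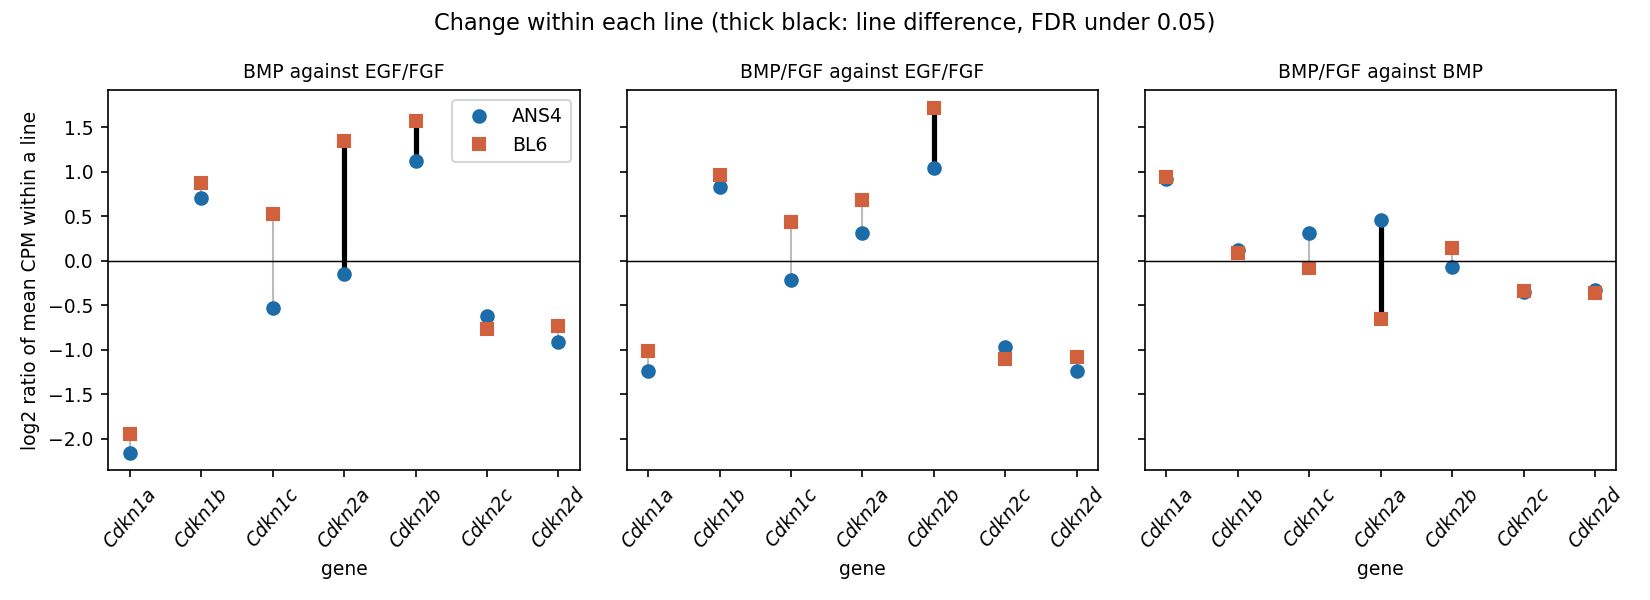
Log2 ratio of mean CPM within each line (y axis; 2 against 2 libraries) for each inhibitor (x axis) in the 3 comparisons, ANS4 as blue circles and BL6 as orange squares. Thick black lines mark the called line differences, Cdkn2a and Cdkn2b in BMP, Cdkn2b in BMP/FGF and Cdkn2a in BMP/FGF against BMP.

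These line differences rested on few libraries. The Cdkn2b difference in BMP was lost without any 1 library except BL6 BMP replicate 1, with FDR values of 0.064 to 0.15 for the 11 other libraries. Its difference in BMP/FGF was lost without BL6 BMP/FGF replicate 2 (0.63, FDR = 0.057) or BL6 EGF/FGF replicate 1 (0.63, FDR = 0.060). The Cdkn2a difference in BMP was lost without ANS4 EGF/FGF replicate 2 (1.43, FDR = 0.063) or BL6 EGF/FGF replicate 1 (1.26, FDR = 0.074). The Cdkn2a difference between BMP/FGF and BMP was lost without ANS4 BMP replicate 1 (FDR = 0.083), ANS4 BMP replicate 2 (0.090), ANS4 BMP/FGF replicate 2 (0.15), BL6 BMP replicate 2 (0.054), BL6 BMP/FGF replicate 1 (0.11) or BL6 BMP/FGF replicate 2 (0.083). Other line differences were called only when a library was left out, for Cdkn1a in BMP without BL6 BMP replicate 1 (FDR = 0.024), Cdkn1c in BMP without BL6 EGF/FGF replicate 2 (FDR = 0.043) and Cdkn2b between BMP/FGF and BMP without BL6 BMP replicate 2 (FDR = 0.045).

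Levels between the genes were compared as CPM per kilobase of the median annotated transcript length (GENCODE vM21). In EGF/FGF the order was Cdkn1a (259 ± 32.1), Cdkn1b (79.8 ± 4.18), Cdkn2c (66.0 ± 3.65), Cdkn2d (20.2 ± 0.71), Cdkn2b (11.3 ± 2.29), Cdkn1c (3.74 ± 1.04) and Cdkn2a (1.75 ± 0.41), in CPM per kilobase with SD, and no neighbouring ranges overlapped. In BMP the order was led by Cdkn1b (138 ± 6.54), then Cdkn1a (62.1 ± 6.67), Cdkn2c (40.9 ± 2.47), Cdkn2b (28.3 ± 2.01) and Cdkn2d (11.4 ± 1.59), with Cdkn1c (3.73 ± 0.82) and Cdkn2a (2.76 ± 1.07) overlapping at the end. In BMP/FGF Cdkn1b (148 ± 3.52) was again above Cdkn1a (118 ± 5.90), and Cdkn2c (32.1 ± 1.56) and Cdkn2b (29.1 ± 2.06) overlapped. With the longest transcript in place of the median length, Cdkn1b kept its place above Cdkn1a in both BMP4 conditions, but Cdkn2c and Cdkn1b overlapped in EGF/FGF and Cdkn2a came above Cdkn1c in all 3 conditions, with overlapping ranges in EGF/FGF. In BMP the range of Cdkn2c then overlapped those of its neighbours Cdkn1a and Cdkn2b, and in BMP/FGF Cdkn2b came above Cdkn2c with ranges apart.

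Summed over the 7 genes, the level was 442 ± 38.2 CPM per kilobase in EGF/FGF, 287 ± 3.18 in BMP and 343 ± 6.93 in BMP/FGF (SD, n = 4). The lowest proliferating library, at 401 CPM per kilobase, was above the highest BMP/FGF library, at 349, and the lowest of those, at 336, was above the highest BMP library, at 290.3. Cdkn1a held 58.5% ± 2.24 of the sum in EGF/FGF, 21.6% ± 2.19 in BMP and 34.4% ± 1.30 in BMP/FGF. Cdkn1b held 18.1% ± 0.89, 48.0% ± 2.36 and 43.2% ± 0.55. The 4 INK4 genes together were at 99.2 ± 4.05, 83.4 ± 1.71 and 72.6 ± 2.05 CPM per kilobase. With longest transcripts the sums were 268, 180 and 208 CPM per kilobase and the share of Cdkn1a was 54.3%, 19.5% and 31.9%. No test was run on these sums.

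**Figure D4:**
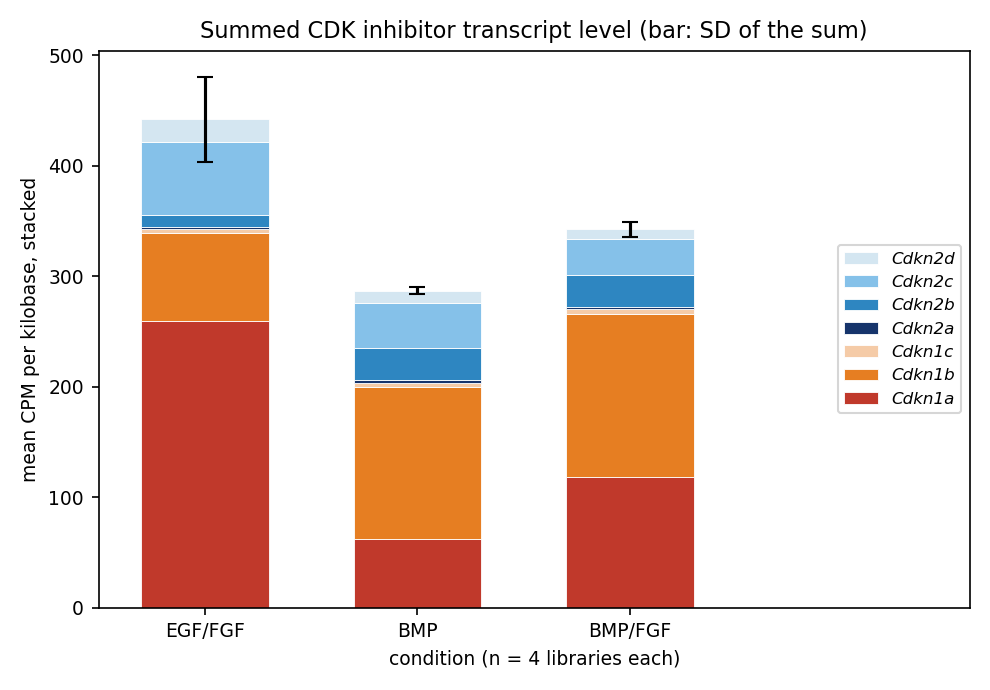
Mean CPM per kilobase of the 7 CDK inhibitors (y axis, stacked from 0) in each condition (x axis, 4 libraries each), with the SD of the sum as the black bar. Red and orange are Cip/Kip genes and blues are INK4 genes. The sum is 442 in EGF/FGF, 287 in BMP and 343 in BMP/FGF, and the largest piece is Cdkn1a in EGF/FGF and Cdkn1b in the others.

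The listed cyclins and CDKs, not all of which these inhibitors bind, were mostly lower in both BMP4 conditions. Of 15 cyclin and CDK genes tested, 1 rose and 13 fell in BMP (median log2 -1.61), 1 rose and 14 fell in BMP/FGF (median -1.76), and 2 rose and 11 fell in BMP/FGF against BMP (median -0.46). Cdk7 was the 1 that rose in both BMP4 conditions (log2 0.74 and 0.52). Counts of this and later lists stand beside 40.8% of all genes higher and 38.8% lower in BMP. In BMP/FGF these shares were 40.9% and 38.0%, and in BMP/FGF against BMP 20.1% and 21.3%. Ccnd1, the D cyclin that carries growth factor signals to Cdk4 and Cdk6, fell from 3120 ± 58.5 CPM to 84.6 ± 26.8 CPM in BMP (log2 -5.24 ± 0.14 SE, FDR = 9.4e-16) and stood at 140.2 ± 9.53 CPM in BMP/FGF, a rise against BMP (log2 0.76, FDR = 9.1e-05). Both Ccnd1 changes differed between lines, BL6 minus ANS4, by 0.85 in BMP (FDR = 1.2e-05) and by -0.64 in BMP/FGF against BMP (FDR = 0.00016). Ccnd2, another D cyclin, was at 744 ± 20.7 CPM, 654 ± 125 CPM and 286 ± 7.26 CPM, and fell by 1.18 on the log2 scale in BMP/FGF against BMP (FDR = 6.9e-09). The line difference of Ccnd2 in this comparison was -0.42 (FDR = 0.0019). Ccnb2, Ccna2 and Ccnb1, cyclins of S phase and mitosis, changed in BMP by log2 values of -3.25, -2.58 and -2.55, and Ccnb1 was lower again in BMP/FGF than in BMP (-1.32). Among proliferation genes named by the same rule, Mki67 changed by -2.88, Plk1 by -2.81, Bub1 by -2.71 and Aurkb by -2.63 in BMP (log2).

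The Rb proteins are held active when CDKs are inhibited and keep E2F targets off. Of 18 Rb, E2F and DREAM complex genes, 3 rose and 14 fell in BMP (median log2 -0.92), 3 rose and 15 fell in BMP/FGF (median -1.04), and 2 rose and 11 fell between BMP/FGF and BMP (median -0.26). E2f8 (log2 -3.11), Mybl2 (-2.21), Rbl1 (-2.20) and E2f7 (-2.13) had the largest changes in BMP, and E2f2 (-1.21) and E2f7 (-1.06) in BMP/FGF against BMP. Rb1 was at 128 CPM in EGF/FGF, 280.3 CPM in BMP and 315 CPM in BMP/FGF, and Rbl2, which encodes p130, the Rb protein of resting cells, at 59.8, 114 and 123 CPM. These Rb genes were singled out after their values were seen.

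Of 10 genes for p27 turnover, 3 rose and 6 fell in BMP (median log2 -0.21), 3 rose and 5 fell in BMP/FGF (median -0.22), and 1 rose and 3 fell in BMP/FGF against BMP (median -0.024). The 3 largest changes in BMP were falls in Cks2 (log2 -2.43 ± 0.094 SE, FDR = 9.3e-14), Cks1b (-2.32 ± 0.10 SE, FDR = 7.7e-13), the cofactor that presents p27 to its ligase, and Skp2 (-1.97 ± 0.087 SE, FDR = 5.3e-13), its F-box protein. Skp2 was at 52.7 ± 4.63 CPM in EGF/FGF, 13.4 ± 0.44 CPM in BMP and 11.96 ± 1.23 CPM in BMP/FGF. Rnf123, part of a ligase that acts on p27 in the cytoplasm, rose by a log2 of 0.56 (FDR = 6.5e-07). Against BMP, both Cks2 (-0.91) and Cks1b (-0.86) were lower again in BMP/FGF.

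Cdkn1a is a p53 target, and the part of p53 in its level was not tested. The listed genes of the p53 network include p53 itself, its regulators and its family members as well as targets. Of 21 tested, 3 rose and 17 fell in BMP (median log2 -0.79), beside 38.8% of all genes lower. In BMP/FGF 3 rose and 17 fell (median -0.60), beside 38.0% of all genes lower. In BMP/FGF against BMP 8 rose, 2 fell and 11 were not called (median 0.06), beside 20.1% of all genes higher. Pmaip1, which encodes the death protein Noxa, was at 22.8 ± 4.09 CPM in EGF/FGF, 3.19 ± 0.58 CPM in BMP and 7.33 ± 0.32 CPM in BMP/FGF, a fall in BMP (log2 -2.82 ± 0.13 SE, FDR = 7.0e-13) and a rise against BMP when FGF2 was present (log2 1.20 ± 0.14 SE, FDR = 3.0e-06). Ccng1, a cyclin-like p53 target, was at 543 ± 88.8, 204 ± 39.5 and 410.4 ± 23.6 CPM and rose by a log2 of 1.04 ± 0.10 SE against BMP (FDR = 4.0e-07). The line difference of Ccng1 in this comparison, BL6 minus ANS4, was 0.62 (FDR = 0.00049). Plk2 was at 204 ± 9.27, 18.7 ± 4.67 and 18.4 ± 0.67 CPM, lower in both BMP4 conditions and with a log2 difference of -0.0082 between them (FDR = 0.96). This difference averages over lines that responded differently, with a line difference, BL6 minus ANS4, of -0.54 (FDR = 0.0070). Gdf15 and Trp63 had few reads, Gdf15 at most 21 counts in any EGF/FGF library and 2 in any BMP library, and Trp63 at most 1 and 26. The genes that rose in BMP were Trp63, Sesn1 (72.6 to 237 CPM) and Fas (12.4 to 35.2 CPM), and Trp53 itself fell (log2 -0.59, FDR = 6.0e-07), the last 3 named after their values were seen.

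**Figure D5:**
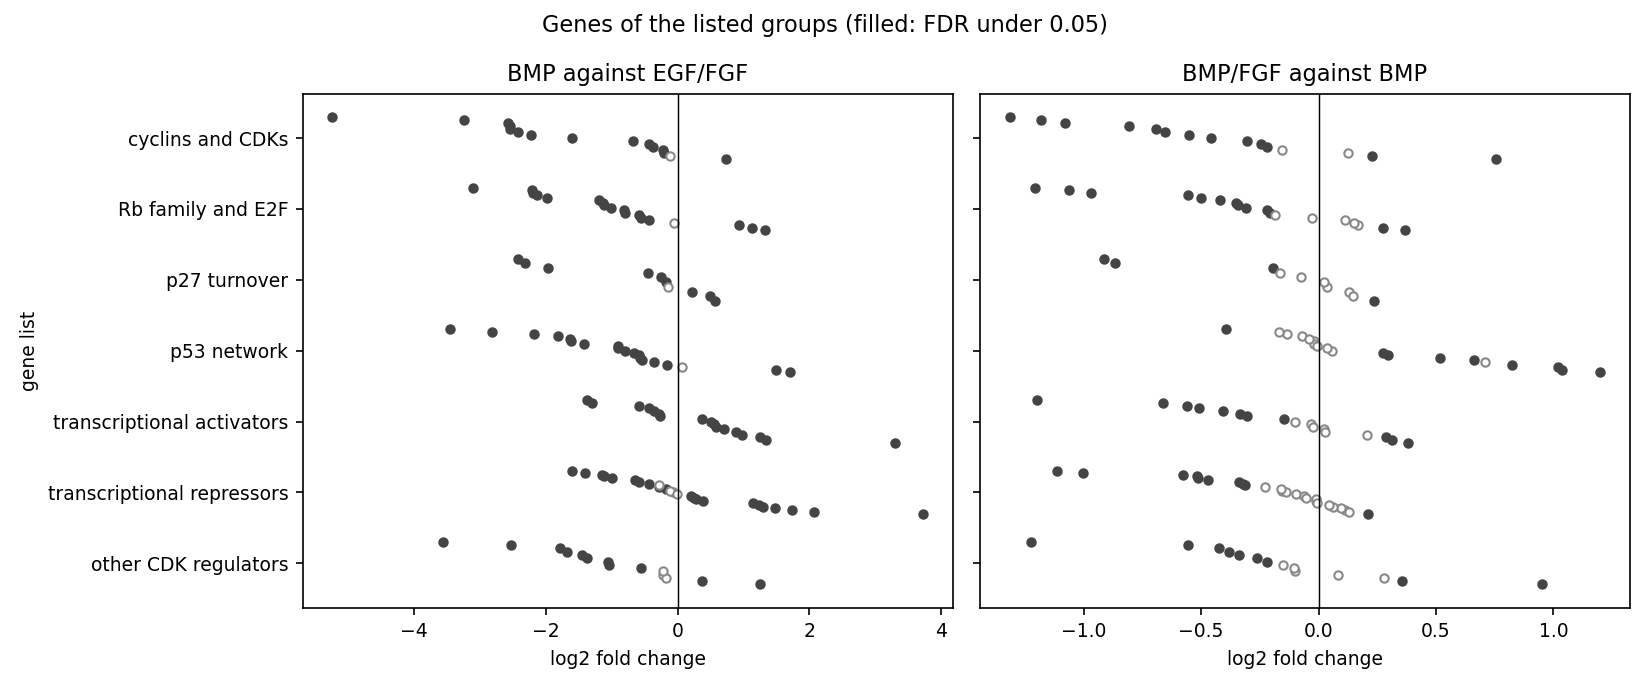
Log2 fold change (x axis) of the tested genes in 7 gene lists (y axis) in BMP against EGF/FGF (left) and BMP/FGF against BMP (right), with separate x scales. Filled points have an FDR under 0.05. Cyclins and CDKs lie mostly below 0 in both panels, whereas p53 network genes lie mostly below 0 on the left and 8 are called above 0 on the right. Trp63 and Gdf15, with almost no reads in a condition, are left out.

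The listed transcriptional activators of CDK inhibitor genes were split. Of 17, 10 rose and 7 fell in BMP (median log2 0.50), 8 rose and 5 fell in BMP/FGF (median 0.20), and 3 rose and 8 fell between BMP/FGF and BMP (median -0.10). Smad9, a Smad that BMP receptors act on, was at 0.65 ± 0.24 CPM, 6.41 ± 0.76 CPM and 4.05 ± 0.31 CPM, and rose in BMP by a log2 of 3.30 ± 0.20 SE (FDR = 3.6e-11). Foxo1, a forkhead factor that acts on Cdkn1b, was at 34.8 ± 2.89, 88.2 ± 7.12 and 60.1 ± 7.58 CPM and rose by 1.35 ± 0.086 SE (FDR = 9.6e-11). Ets2 and Klf4 fell by 1.38 and 1.30 on the log2 scale in BMP. Foxo6 (log2 -1.20) and Smad9 (-0.66) had the largest changes in BMP/FGF against BMP.

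Of 25 listed repressors, Polycomb genes and Id genes among them, 11 rose and 10 fell in BMP (median log2 -0.08), 8 rose and 13 fell in BMP/FGF (median -0.17), and 1 rose and 9 fell between BMP/FGF and BMP (median -0.14). The counts in BMP are near the shares of all genes, 40.8% higher and 38.8% lower. Id4 rose from 2.07 ± 0.55 to 27.5 ± 1.66 CPM in BMP (log2 3.73 ± 0.13 SE, FDR = 2.6e-14) and Id2 from 46.7 ± 3.22 to 198 ± 24.6 CPM (log2 2.08 ± 0.080 SE, FDR = 9.3e-14), both inhibitors of helix-loop-helix factors that BMP is known to induce. Cbx7, a Polycomb protein known to hold the Cdkn2a locus silent, rose by a log2 of 1.73 (FDR = 3.0e-10), while Ezh2, which places the Polycomb mark, fell from 182 ± 20.6 to 60.1 ± 6.14 CPM (log2 -1.60, FDR = 8.0e-12). Tbx2 (log2 -1.115) and Pcgf2 (-1.004) fell in BMP/FGF against BMP.

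Among 14 other CDK regulators, 2 rose and 9 fell in BMP (median log2 -1.04), 2 rose and 10 fell in BMP/FGF (median -1.40), and 2 rose and 7 fell in BMP/FGF against BMP (median -0.19). Cdkn3, a phosphatase of CDKs in neither the Cip/Kip nor the INK4 family, fell by 3.57 on the log2 scale in BMP. In the same comparison Cdc25c, which activates Cdk1, fell by 2.54, Mtbp by 1.78 and the Cdk1 kinase Pkmyt1 by 1.68. Cables1 rose by 0.95 and Cdc25c fell by 1.22 in BMP/FGF against BMP.

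Of 6 listed neighbours of Cdkn2a and Cdkn2b, 4 were in the table and tested, of which 1 rose and 2 fell in BMP. Mtap, a purine salvage enzyme, fell from 21.4 ± 2.25 to 7.73 ± 0.97 CPM in BMP (log2 -1.46 ± 0.12 SE, FDR = 1.7e-09), Dmrta1, at most 18 counts in any library, by 1.05 (FDR = 0.021, and 0.068 without ANS4 EGF/FGF replicate 2, 0.069 without ANS4 BMP replicate 1 and 0.060 without BL6 BMP replicate 2). Elavl2, a neuronal RNA-binding protein, rose from 9.74 ± 0.57 to 18.3 ± 4.59 CPM (log2 0.90 ± 0.12 SE, FDR = 2.6e-06) and fell by 1.19 in BMP/FGF against BMP, and Klhl9 differed by 0.01 in BMP (FDR = 0.91). The fall of Elavl2 differed between lines, BL6 minus ANS4, by -0.70 (FDR = 0.014). In BMP/FGF against EGF/FGF 2 of these neighbours fell and none rose. Of 9 tested genes of the imprinted domain of Cdkn1c, 3 rose and 3 fell in BMP (median log2 -0.17), 3 rose and 3 fell in BMP/FGF (median 0.03), and 3 rose and 2 fell between BMP/FGF and BMP (median 0.13). The counts in BMP are near the shares of all genes, 40.8% higher and 38.8% lower. Osbpl5 rose by 1.83 (log2) and Cd81 by 0.64 in BMP, Cars fell (-1.120), and H19 was at 14.4 ± 4.26, 11.2 ± 0.88 and 33.0 ± 2.23 CPM, a rise of 1.57 in BMP/FGF against BMP. Kcnq1ot1 (log2 0.36 in BMP) runs antisense to Kcnq1, and no source used here states that the counting used strand. Kcnq1 had at most 0, 3 and 2 counts in any library of EGF/FGF, BMP and BMP/FGF.

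The genes whose levels followed each inhibitor most closely were taken from the 12 libraries by Pearson's r of log2 CPM, as a description. The libraries fall into 3 conditions, so r mainly follows the condition means. For Cdkn1a these included Scarb1 (r = 0.991) and Dglucy (0.991), with Scarb1, a receptor for high-density lipoprotein, at 116, 46.4 and 69.1 CPM in EGF/FGF, BMP and BMP/FGF. For Cdkn1b they were Acsl3 (0.999), Tbc1d23 (0.997) and Snx14 (0.997), with Acsl3, which activates fatty acids, at 418, 1208 and 1402 CPM. For Cdkn2b they included Syn2 (0.995) and Me3 (0.993), and Syn2, a synaptic vesicle protein, was at 39.1, 101 and 97.2 CPM. For Cdkn2c they were Dut (0.992), Fen1 (0.990) and Cdc25b (0.988), the first a nucleotide and the next a DNA replication enzyme, and Fen1 was at 61.1, 18.2 and 10.5 CPM. For Cdkn2d they were Rnf26 (0.991), Uba1 (0.990) and Mbd3 (0.989), and Uba1, the ubiquitin-activating enzyme, was at 617, 458 and 393 CPM. The low genes had looser likeness, Cdkn2a to Pcdh15 (0.901), Fam13c (0.899) and Pgam2 (0.893), and Cdkn1c to Rfxap (0.808), Zfp68 (0.753) and Pcdh15 (0.739).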

How the data were processed

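RNA of NSC line ANS4 or BL6 (RIN at least 9.6) was sequenced on a BGISEQ-500RS with a low input library. The authors trimmed reads with Trim Galore 0.5.0, quantified transcripts of mm10 with kallisto 0.44.0, summed them to genes with tximport and deposited estimated counts, which are whole numbers, and log2 values from the regularised log of DESeq2 1.27.32 (versions from the submitters' processing notes and methods). All 12 libraries were used, and 0 columns of per-sample values were left out.

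Counts passing filterByExpr were fitted in edgeR 4.0.16 (R 4.3.3, TMM, condition and line as terms, quasi-likelihood test, Benjamini-Hochberg over 13312 genes). The interaction of line and condition gave line differences. Exact permutation tests used mean log2(CPM + 0.1) and did not keep the lines apart. Fitted fold changes come from counts without this pseudocount. SE is the fitted coefficient over the root of F. Per-kilobase levels and positions used GENCODE vM21 (GRCm38), promoters RefSeq GRCm38.p6. Alternatives were DESeq2 1.42.0, limma 3.58.1 on the log2 values, scaling, filter, covariates, a replicate block, transcript length, pseudocount and each library left out. Replicate numbers shared across conditions did not pair the libraries (correlations of deviations -0.0711 to 0.0529). No pair of libraries held identical counts, and every replicate pair differed beyond counting error. Scripts were tested on simulated counts.

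All 7 members were named. Of each list of related genes the counts were given, and by name up to 4 called genes with the largest change in BMP against EGF/FGF and up to 2 in BMP/FGF against BMP, with cell type markers given as sums. Changes of listed genes are over both lines. Their called line differences are given only for Ccnd1, Ccnd2, Ccng1, Plk2 and Elavl2, although other listed genes had them. For each member the 3 genes most like it (mean of at least 1 CPM) were taken, of which 2 in all are not reported here. Members and lists were chosen with earlier results of these data known.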

Additional observations from a re-analysis of the deposited data

Results flagged for a closer look

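The level of Cdkn1a in BL6 BMP/FGF replicate 2, at 128 CPM, lay far from the other 3 BMP/FGF libraries, which were at 141 to 143 CPM. It was the only one of 21 groups of 4 libraries in which 1 library stood apart by Dixon's test, and chance alone gives about 1 in 20. All 4 BMP/FGF libraries were above the BMP libraries with or without it.

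The responses of the lines differed, by the interaction in edgeR's quasi-likelihood test, for Cdkn2a in BMP against EGF/FGF (log2 1.49, BL6 minus ANS4, FDR = 0.015) and in BMP/FGF against BMP (log2 -1.120, FDR = 0.036). They also differed for Cdkn2b in BMP (log2 0.45, FDR = 0.044) and in BMP/FGF (log2 0.67, FDR = 0.0085) against EGF/FGF. The Cdkn2a values rest on 20 to 62 counts per library and on both BL6 BMP libraries, the replicates of which differed most from each other in the series, although for Cdkn2a they were at 3.21 and 3.23 CPM. In these BL6 BMP libraries the summed neuron markers, at 1638 and 1815 CPM, were above those of ANS4 BMP, at 1157 and 1244 CPM, and their part in the Cdkn2a level was not tested.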

How the results depend on the processing

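The number of inhibitors called in the 3 comparisons of conditions stayed within 1.5 times that reported under every alternative, although with BL6 alone the 3 between BMP/FGF and BMP held Cdkn2a in place of Cdkn2d, and without both BL6 BMP libraries the counts were 5, 6 and 2. With a replicate block the counts were 6, 5 and 3 of 7 as without it, and the block changed the sign of Cdkn1c in BMP, from -0.0031 to 0.00033 (log2). Cdkn2a reversed in BMP with ANS4 alone (-0.15) and without both BL6 BMP libraries (-0.062, an alternative chosen after seeing the data), and in BMP/FGF against BMP (0.46 and 0.54). Other sign changes under these alternatives were of values that lay within 0.09 of 0 as reported. With library size only they were Cdkn1c in BMP (0.016), Cdkn2b between BMP/FGF and BMP (-0.0029) and the line differences between BMP/FGF and BMP of Cdkn1a (-0.052) and Cdkn2c (-0.068). With ANS4 alone they were Cdkn2b between BMP/FGF and BMP (-0.072) and Cdkn1c in BMP/FGF (-0.22), with BL6 alone Cdkn1c in BMP (0.51) and between BMP/FGF and BMP (-0.087), and with limma on log2 values Cdkn1c in BMP (0.0080).

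With each library left out in turn, log2 values of inhibitors that changed sign ran for Cdkn1c from -0.20 to 0.18 in the BMP comparison, -0.11 to 0.27 in the BMP/FGF comparison and -0.048 to 0.19 between them, and for Cdkn2b between them from -0.021 to 0.099. Line differences between BMP/FGF and BMP ran from -0.12 to 0.19 for Cdkn1a, -0.070 to 0.090 for Cdkn2c, -0.22 to 0.18 for Cdkn2d and -0.10 to 0.047 for Cdkn1b, and that of Cdkn2d in BMP, 0.18 with all libraries, from -0.031 to 0.37.

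Line differences were called for 1201, 663 and 1801 genes in BMP, in BMP/FGF and between them, and for 613 to 2441, 183 to 1377 and 870 to 2839 genes without 1 library. With only the 8 libraries compared the first was 611 and the second 1678. The inhibitors called numbered 0 to 3, 0 to 1 and 0 to 1 without 1 library. In BMP they were 2 as reported, 0 by DESeq2, 1 with no filter, 1 with the 8 libraries and 1 by limma. Between BMP/FGF and BMP they were 0 by DESeq2, which gave Cdkn2a no adjusted p. The cause of these shifts was not tested. Cdkn1c and Cdkn2a had 20 to 64 counts per library, and the part of depth in their results was not tested.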
